A study of Homo sapiens with 30 samples.

Results

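The 46 genes described here, grouped by symbol, encode subunits of the proteasome, activators, an inhibitor and an assembly factor. They were taken from the symbols of the deposited tables by name, as every PSMA, PSMB, PSMC, PSMD and PSME subunit, PSMF1, POMP and SEM1, and all 46 were among the 61471 symbols of both tables. The rule uses names only. They comprise 8 alpha subunits of the core, 8 constitutive beta subunits, 3 inducible beta subunits, 6 ATPases and 15 members placed as non-ATPase, the PSMD genes and SEM1. The others are 4 activators, 1 inhibitor and the assembly factor POMP. Placing by symbol does not separate subunits from assembly chaperones among the PSMD genes. RNA came from U87-MG and U251-MG, established human glioblastoma lines labelled as wild type. The treatment was recombinant human IFN-γ, at 1 µg/mL in the sample protocols and at 1 µL/mL, a volume, in the sample characteristics, while the study's methods give a far lower mass per volume, so the dose is uncertain. Each line had 5 groups of 3 libraries that the labels call biological replicates. Untreated cells had no IFN-γ. Their labels give day 3, whereas the methods of the study have this group collected on day 0, so whether it was matched in time to D3 is unclear. D3, D14 and D28 were cells with IFN-γ for 3, 14 and 28 days. D28WO cells had IFN-γ for 14 days and were then kept without it until day 28.

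Values are TPM, transcripts counted per length and set to a fixed total, so the depth of each library cannot be read from them. The methods of the study state a minimum number of reads for every library. A level is therefore a share of a library's RNA. In such bulk libraries, fewer cells with a transcript and less of it per cell cannot be told apart. A pair of U87 columns shared 1 name and was left out, which leaves 2 libraries for D3 of U87 and 2 for its D14. The study states that neither line was authenticated again after receipt and that both appear on a list of lines that are often misidentified. Among the glioma and neural markers, VIM ranged over 984 to 1459 TPM in U87 and 599 to 1161 TPM in U251, and CD44 over 471 to 732 and 394 to 864 TPM. SOX2 was at 105 to 176 TPM in U251 but at 0 to 0.411 TPM in U87, and GFAP at 222 to 1309 against 2.33 to 19.1 TPM, so SOX2 and GFAP were at or near 0 or low in U87. OLIG2 went the other way, at 3.51 to 32.0 TPM in U87 against 0 to 1.33 TPM in U251. Of the 6 glioma and neural markers tested in U251, 5 or 6 were lower in every treated group, whose part in the results was not tested. The leukocyte markers PTPRC, CD3E, CD14 and LYZ reached at most 5.75 TPM in any library of either line. CD14 made up that highest value, was called higher in all 4 treated groups of U251, and CD3E was at 0 in 11 libraries of each line.

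Some U87 libraries stood apart. The 2 U87 libraries labelled D14 did not show the rise of IRF1 seen in the other treated libraries. IRF1, a transcription factor induced by IFN-γ, was at 134 and 109.8 TPM at D14, against 136, 130.1 and 134 TPM in Untreated and 445 and 450.1 TPM at D3. In U251 the D14 libraries held 288, 321 and 292 TPM of IRF1, against 137, 142 and 145 TPM in Untreated. This gene was chosen for the check after its values were seen. PSMB8-AS1, a transcript that overlaps PSMB8, was higher in the same D14 libraries, by 0.56 on the log2 scale (limma, adjusted p = 0.0192), and lower there than at D3. Untreated replicate 3 of U87 had the lowest median-ratio size factor of the line, 0.804 against 0.943 to 1.08 for the other 12 libraries, and falls in U87 that leaving it out ends or makes smaller are given without it where they are described in full.

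The proteasome degrades proteins that carry ubiquitin chains. Its barrel-shaped core is built from rings of alpha and beta subunits. The alpha rings form the gate, and PSMB5, PSMB6 and PSMB7 carry the chymotrypsin-like, caspase-like and trypsin-like active sites. The regulatory particle of ATPases and non-ATPase subunits binds, unfolds and feeds in the substrate. IFN-γ is known to induce PSMB8, PSMB9 and PSMB10, which take the places of PSMB5, PSMB6 and PSMB7 in newly built cores and give the immunoproteasome, whose peptides are favoured for presentation on MHC class I. PSME1 and PSME2 form the activator PA28, which opens the core without ATP and is also IFN-γ inducible. PSME3 forms a nuclear activator, PSME4 is the activator PA200, PSMF1 is the inhibitor PI31, and POMP is the chaperone needed to assemble the core.

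The start regions of the inducible members are shown first, because they carry the letters of an element bound by the IRF factors that IFN-γ induces. Windows of 250 bases before to 50 bases after the annotated start (RefSeq, GRCh38.p14) were found for 41 of the 46 members, and PSMA7, PSMB1, PSMB6, PSMB7 and PSMD4 had none. The letters GAAA and GAAA with any 2 bases between them, or their reverse complement (TTTC and TTTC in the same spacing), occurred in the windows of 4 of the 5 members PSMB8, PSMB9, PSMB10, PSME1 and PSME2, and in 2 of the 36 other members, PSMA4 and PSMB4. The share of all 35116 windows that held them was 3.57%, and the share of genes with such a window was 4.38%. The matched stretches, 5′ to 3′ on the strand of the gene, with the matched letters in capitals, were
PSMB8, chr6:32844032-32844061, minus strand: gatctgtggcTTTCGCTTTCacttcctcct
PSMB10, chr16:67936852-67936881, minus strand: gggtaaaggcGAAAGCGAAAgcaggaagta
PSME1, chr14:24136189-24136218, plus strand: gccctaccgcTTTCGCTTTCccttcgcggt
PSME2, chr14:24146619-24146648, minus strand: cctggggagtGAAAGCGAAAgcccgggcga
TAP1, chr6:32853813-32853842, minus strand: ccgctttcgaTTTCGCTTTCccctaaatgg
The first matched base lay 4 bases before the start in PSMB8, 21 in PSMB10 and 28 in PSME2, and 5 bases after it in PSME1. The window of PSMB9 held no match. The start of PSMB9 used here is at position 32854192 of chromosome 6. From this start PSMB9 lies head to head with TAP1, a subunit of the peptide transporter for MHC class I and no member, and the printed match of TAP1 lay between both starts, 359 bases before that of PSMB9. In the GENCODE annotation used for the gene positions PSMB9 has a longer range that takes in the whole of TAP1 (32845209 to 32853816, minus strand). The matches describe letters and not bound sites.

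For comparison, TGACNNNGC, the core letters of the antioxidant response element read by NFE2L1 and NFE2L2, occurred in the windows of 14 of the 41 members, which is 34.1% of them against 16.1% of all genes with a window, or 13.3% of all windows. Both strands were searched, and no test was made.

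In Untreated cells, 44 members were expressed well enough to be tested, and PSMA8, the spermatogenic alpha subunit, and PSMB11, the thymic beta subunit, were listed at 0 in every Untreated library of both lines and reached at most 0.304 TPM and 0.263 TPM in any library. The median of the 44 was 190.4 TPM in U87 and 154 TPM in U251. In both lines PSMB7 was the most abundant, with 480.0 ± 69.8 TPM in U87 and 294 ± 17.9 TPM in U251 (SD, n = 3 each), and PSME4 the least, with 57.3 ± 5.77 and 56.3 ± 2.63 TPM. The inducible subunits were already present without IFN-γ. In U87 PSMB10 was at 97.4 ± 6.40, PSMB8 at 80.3 ± 2.79 and PSMB9 at 72.4 ± 6.02 TPM, each below every constitutive beta subunit tested. In U251 PSMB8 was at 106 ± 4.04, PSMB10 at 102 ± 4.67 and PSMB9 at 69.9 ± 1.84 TPM, and the libraries of PSMB8 and PSMB10 overlapped. The replicate spread was small, with a median coefficient of variation of 5.80% over members and groups in U87 and 5.01% in U251.

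In U87 all 3 inducible catalytic subunits were raised with IFN-γ at D3 and D28 and were also high at D28WO, but not in the libraries labelled D14. By the labels the D28WO cells left IFN-γ at day 14, so D14 is the group they started from. PSMB9, the inducible partner of PSMB6 (GRCh38 chromosome 6, 32844136 to 32859851, plus strand), was at 78.9, 67.1 and 71.0 TPM in the Untreated libraries, 165 and 168 at D3, 71.6 and 68.1 at D14, 168, 162 and 201 at D28 and 179, 189 and 171 at D28WO. All D3, D28 and D28WO libraries lay above all Untreated ones, and the D14 libraries lay among them. Its log2 fold change against Untreated was 1.20 (SE 0.10, adjusted p = 1.05e-05) at D3, 1.27 (SE 0.09, adjusted p = 1.82e-06) at D28 and 1.30 (SE 0.09, adjusted p = 8.24e-07) at D28WO (limma with Benjamini-Hochberg adjustment over all genes).

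PSMB10, the inducible partner of PSMB7 (chromosome 16, 67934506 to 67936864, minus strand), was at 103, 90.6 and 98.3 TPM in Untreated, 203 and 213 at D3, 116 and 101 at D14, 191, 194 and 250.1 at D28 and 229.7, 258 and 233 at D28WO. PSMB10 changed by 1.09 on the log2 scale in D3, 1.10 in D28 and 1.29 (SE 0.10, adjusted p = 3.19e-06) in D28WO. PSMB8, the inducible partner of PSMB5 (chromosome 6, 32840717 to 32844679, minus strand), was at 80.6, 82.9 and 77.4 TPM in Untreated, 138 and 137 at D3, 87.7 and 74.6 at D14, 124, 133 and 156 at D28 and 153, 163 and 152 at D28WO. The change of PSMB8 was smaller, 0.77 at D3, 0.77 at D28 and 0.95 (SE 0.09, adjusted p = 9.53e-06) at D28WO. The PSMB8 and PSMB9 genes overlap each other and PSMB8-AS1, PSMB9 also overlaps TAP1, and no source used here states that strand was kept, so reads from the overlap cannot be told apart. PSMB8-AS1 was at 17.2 ± 2.04 TPM in Untreated U87 cells and 56.9 ± 3.59 at D28, and at 37.5 ± 3.77 and 46.5 ± 8.44 TPM in U251 (SD, n = 3). At D14 it was at 25.7 ± 1.65 TPM in U87 (SD, n = 2). TAP1 was higher at D3 by 1.57 in U87 and 2.08 in U251 and at D28WO by 1.79 and 2.32 on the log2 scale, and the part of its reads in the values of PSMB9 was not tested.

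In U251 the 3 subunits rose at every time point, least at D14. PSMB9 was at 69.5, 68.2 and 71.9 TPM in Untreated, 243, 264 and 251.2 at D3, 147, 157 and 160.4 at D14, 219, 220.0 and 229.9 at D28 and 279, 298 and 304 at D28WO. The libraries of the 5 groups did not overlap, and from lowest to highest the groups were Untreated, D14, D28, D3 and D28WO. The log2 fold change against Untreated was 1.84, 1.13, 1.66 and 2.05 (SE 0.05, adjusted p = 2.75e-12) in the order D3, D14, D28 and D28WO.

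PSMB10 of U251 was at 108, 99.996 and 99.2 TPM in Untreated, 231, 201 and 247 at D3, 140.3, 127 and 132 at D14, 272, 266 and 267 at D28 and 269, 279.8 and 269 at D28WO. On the log2 scale it rose by 1.13 in D3, 0.37 (SE 0.07, adjusted p = 0.00135) in D14, 1.38 in D28 and 1.41 in D28WO, with the smallest D14 value of the 3. PSMB8 of U251 was at 108, 101 and 108 TPM in Untreated, 190.3, 185 and 200.3 at D3, 156, 173 and 168 at D14, 178, 184 and 190.3 at D28 and 197, 211 and 216 at D28WO, and its log2 fold change stayed between 0.64 at D14 and 0.97 at D28WO.

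The constitutive counterparts did not rise in U87. In U87 PSMB5 was at 167, 181 and 198 TPM in Untreated, 138 and 157 at D3, 168 and 164 at D14, 137, 140.4 and 149 at D28 and 132, 133 and 138 at D28WO. PSMB6 went from 209.9, 209.7 and 242 TPM in Untreated to 176 and 172 at D3, 186 and 179 at D14, 151, 167 and 176 at D28 and 159, 158 and 149 at D28WO. PSMB7 went from 432, 448 and 560.0 TPM to 387 and 391, 388 and 380.2, 359.8, 350.2 and 394, and 360.2, 359 and 344 in the same order. At D28WO the log2 fold changes were -0.43 (SE 0.07, adjusted p = 0.000672) for PSMB5, -0.50 (SE 0.07, adjusted p = 0.000265) for PSMB6 and -0.43 (SE 0.09, adjusted p = 0.00197) for PSMB7. Untreated replicate 3 was the highest Untreated library for all 3, and without it the values were -0.37, -0.43 and -0.31 (adjusted p = 0.00276, 0.00101 and 0.00225).

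In U251 PSMB5 fell at D3 and D28WO, PSMB6 rose at D28 and PSMB7 passed no test. PSMB5 was at 130.1, 150.2 and 149 TPM in Untreated, 122, 106 and 119 at D3, 131, 146 and 148 at D14, 125, 126 and 137 at D28 and 121, 119.5 and 126 at D28WO, and it had log2 fold changes of -0.31 at D3 and -0.23 at D28WO (adjusted p = 0.00418 and 0.0354). The D28WO call of PSMB5 was lost without Untreated replicate 2 or 3 or any 1 of the 3 D28WO libraries (adjusted p = 0.0549 to 0.127). PSMB6 was at 147, 155 and 165 TPM in Untreated, 166, 160.0 and 175 at D3, 161, 169 and 170.1 at D14, 167, 185 and 171 at D28 and 166, 177 and 168 at D28WO, and it rose at D28, by 0.16 (SE 0.06, adjusted p = 0.0363), a call lost without Untreated replicate 1 or 2 or D28 replicate 2 or 3 (adjusted p = 0.0555 to 0.148). PSMB7 was at 275, 296 and 311 TPM in Untreated, 270.1, 286 and 305 at D3, 269.9, 314 and 289 at D14, 294, 283 and 301 at D28 and 256, 285 and 282 at D28WO, and it passed the test in no comparison with Untreated.

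**Figure D1:**
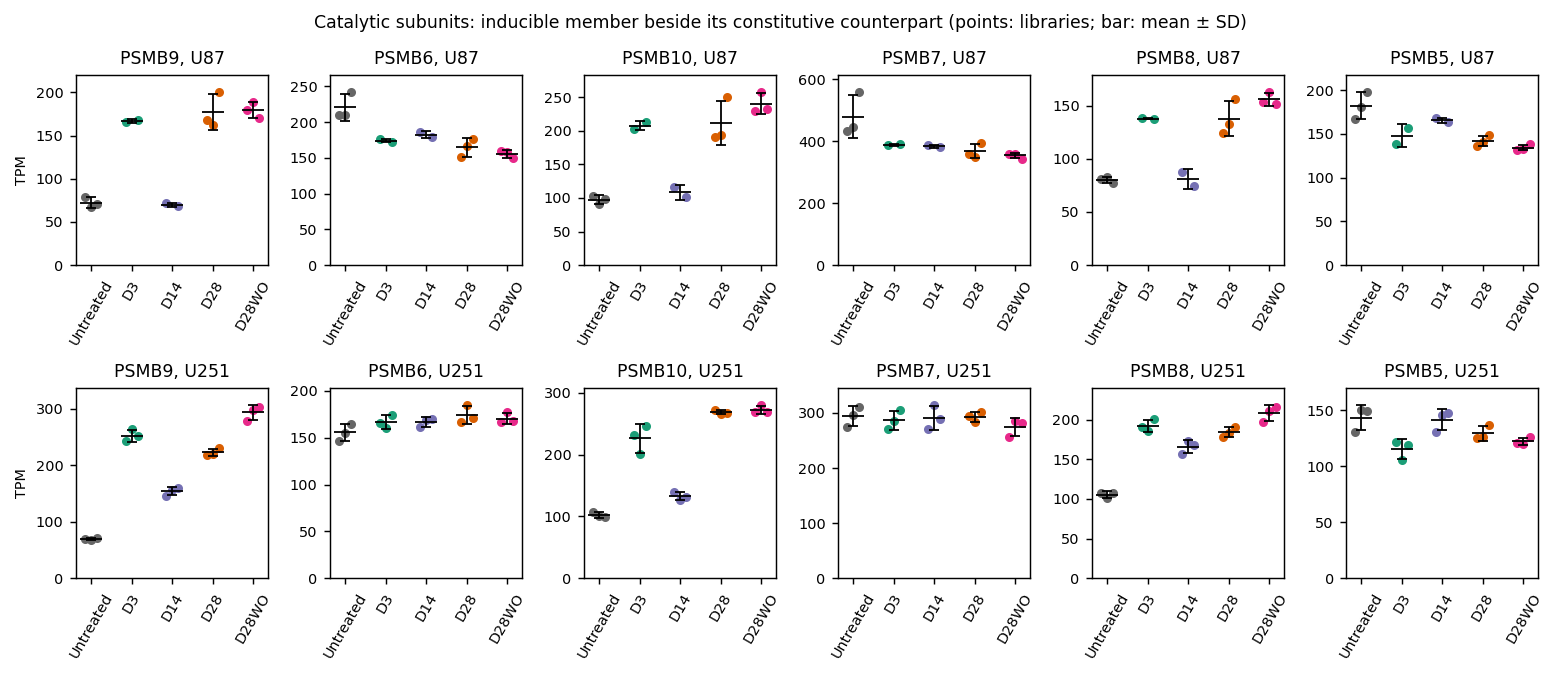
TPM of each inducible catalytic subunit beside its constitutive counterpart, by group, for U87 (top) and U251 (bottom). Points are libraries and bars the mean ± SD. In U251 every treated library of PSMB9, PSMB10 and PSMB8 lies above the Untreated ones, while in U87 the D14 points of PSMB9, PSMB10 and PSMB8 lie near Untreated.

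Because TPM is per length, the 6 catalytic genes can be set against each other within a library. The inducible share, PSMB8, PSMB9 and PSMB10 together as a percentage of the TPM of all 6, is not moved by a factor common to a library. In U87 it was 24.5, 22.3 and 19.8% in the Untreated libraries, 41.9 and 41.8% at D3, 27.1 and 25.2% at D14, 42.7, 42.7 and 45.8% at D28 and 46.3, 48.4 and 46.8% at D28WO. Every treated library was above every Untreated one, with D14 close to them. The differences of the means from Untreated were 19.7, 3.95, 21.5 and 25.0 percentage points, and with quantile normalization that of D14 was 1.36 points. In U251 the share was 34.1, 30.9 and 30.9% in Untreated, 54.4, 54.1 and 53.9% at D3, 44.1, 42.0 and 43.1% at D14, 53.3, 53.0 and 53.0% at D28 and 57.8, 57.6 and 57.8% at D28WO, and the differences were 22.2, 11.1, 21.2 and 25.8 points. The 2-sided exact permutation test gave 0.1 for every comparison of 3 with 3 libraries and 0.2 for those of 2 with 3, which are the smallest p these designs allow and cannot pass 0.05. The highest share in a U87 library was 48.4%, below the lowest of the U251 libraries at D3, D28 and D28WO, 53.0%, a value set across separate tables and not tested.

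By pairs, the ratio of PSMB9 to PSMB6 moved most at D28WO. In U87 it was 0.330 ± 0.0422 in Untreated, 0.958 ± 0.0257 in D3 (n = 2), 0.383 ± 0.00319 in D14 (n = 2), 1.07 ± 0.0888 in D28 and 1.15 ± 0.0335 in D28WO (SD, n = 3). In U251 it was 0.450 ± 0.0206, 1.52 ± 0.116, 0.926 ± 0.0162, 1.28 ± 0.0799 and 1.72 ± 0.0765 in the same order (n = 3 each). The ratio of PSMB8 to PSMB5 at D28WO was 1.16 ± 0.0636 in U87 and 1.71 ± 0.0704 in U251, from 0.444 ± 0.0477 and 0.741 ± 0.0798 in Untreated. That of PSMB10 to PSMB7 went from 0.206 ± 0.0319 to 0.678 ± 0.0407 in U87 and from 0.350 ± 0.0375 to 0.995 ± 0.0508 in U251, where PSMB10 and PSMB7 were then at about the same level with overlapping libraries. At D28WO the order in U87 was PSMB7, PSMB10, PSMB9, and then PSMB8 and PSMB6, whose libraries overlapped, and PSMB5. In U251 it was PSMB9, PSMB7 and PSMB10, PSMB8, PSMB6 and PSMB5, with overlap among PSMB9, PSMB7 and PSMB10 only.

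The activator genes split into the inducible pair and the others. PSME1 (chromosome 14, 24136163 to 24138967, plus strand) was at 199.8, 153 and 167 TPM in Untreated U87 cells, 243 and 286 at D3, 156 and 136 at D14, 297, 242 and 288 at D28 and 279.9, 264 and 253 at D28WO. PSME2 (chromosome 14, 24143362 to 24147570, minus strand) was at 166, 182 and 199.5, 267 and 283, 159 and 166, 250.9, 282 and 298, and 281, 297 and 285 TPM in the same groups. The pair rose in U87 at 3 of 4 groups, by 0.61 and 0.59 at D3, 0.67 and 0.60 at D28 and 0.62 and 0.66 at D28WO on the log2 scale. At D3 both calls were lost with median-ratio size factors and with only the 2 compared groups in the fit, and that of PSME1 also without D3 replicate 3 (adjusted p = 0.0786).

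In U251 PSME2 had the larger fold changes. PSME1 was at 171, 167 and 175 TPM in Untreated, 254, 332 and 259 at D3, 190.0, 187 and 202 at D14, 248, 266 and 252 at D28 and 321, 319.8 and 318 at D28WO, with log2 fold changes of 0.71, 0.17, 0.57 and 0.90, of which the D14 value did not pass the test (adjusted p = 0.142). It passed with quantile normalization (0.22, adjusted p = 0.0255) and with only the 2 compared groups in the fit (adjusted p = 0.0454). PSME2 was at 122, 123 and 116 TPM in Untreated, 268, 323 and 338 at D3, 208, 223 and 227 at D14, 302, 339.98 and 376 at D28 and 338, 306 and 314 at D28WO, with log2 fold changes of 1.35, 0.86, 1.48 (SE 0.09, adjusted p = 1.57e-08) and 1.40. The ratio of PSME1 to PSME2 was 1.42 ± 0.0777 in Untreated and lower in every treated group, with 0.913 ± 0.133 in D3, 0.881 ± 0.0366 in D14, 0.758 ± 0.0775 in D28 and 1.00 ± 0.0477 in D28WO, with no overlap with Untreated (exact permutation p = 0.1 each, the smallest possible). In U87 the same ratio was 0.962 ± 0.211 in Untreated and between 0.901 and 1.00 in the treated groups.

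The other activators had 1 call against Untreated over both lines. PSME3 of U87 was at 184, 166 and 201 TPM in Untreated, 162 and 159 at D3, 137 and 153 at D14, 133, 163 and 167 at D28 and 167, 169.5 and 153 at D28WO, and in U251 it was at 141, 139 and 139, 159, 142 and 165, 147, 161 and 160.3, 144, 134 and 141, and 157, 145 and 159 TPM. PSME4 of U87 was at 54.1, 64.0 and 53.9, 60.3 and 54.8, 70.5 and 65.0, 58.0, 59.6 and 59.8, and 46.7, 60.004 and 57.9 TPM in the same order. PSME4 of U251 was at 58.9, 53.6 and 56.4 TPM in Untreated, 59.99, 52.1 and 61.4 at D3, 75.8, 64.6 and 62.7 at D14, 64.5, 60.2 and 65.8 at D28 and 62.1, 61.2 and 55.8 at D28WO. Of these, only PSME4 of U251 at D14 passed the test against Untreated, at 0.26 (SE 0.09, adjusted p = 0.0476), a call lost without any 1 Untreated library or D14 replicate 1 or 2 (adjusted p = 0.0571 to 0.182).

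The inhibitor and the assembly factor passed the test in U251 and not in U87, and the difference between the lines was not tested. PSMF1 of U251 was at 245, 256 and 281 TPM in Untreated, 297, 339 and 301 at D3, 239, 259.8 and 275 at D14, 289, 279 and 269 at D28 and 372, 299 and 322 at D28WO. It rose by 0.26 (SE 0.08, adjusted p = 0.0226) at D3 and 0.34 (SE 0.08, adjusted p = 0.00732) at D28WO, and the D3 call was lost without Untreated replicate 1 or 2 or D3 replicate 2 (adjusted p = 0.0630 to 0.0935). In U87 PSMF1 was at 208, 179 and 211 TPM in Untreated, 202 and 223 at D3, 210.1 and 188 at D14, 199, 198 and 217 at D28 and 201, 182 and 208 at D28WO, and all groups overlapped. POMP of U251 was at 138, 136 and 154 TPM in Untreated, 148, 144 and 153 at D3, 154, 162 and 164 at D14, 177, 173 and 185 at D28 and 146, 145 and 154 at D28WO, and it rose at D28, by 0.32 (SE 0.06, adjusted p = 0.000416). In U87 POMP was at 180.2, 166 and 214 TPM in Untreated, 161 and 159 at D3, 171 and 158 at D14, 136, 163 and 192 at D28 and 165, 171 and 156 at D28WO, with log2 fold changes of -0.21 to -0.17 that did not pass the test.

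**Figure D2:**
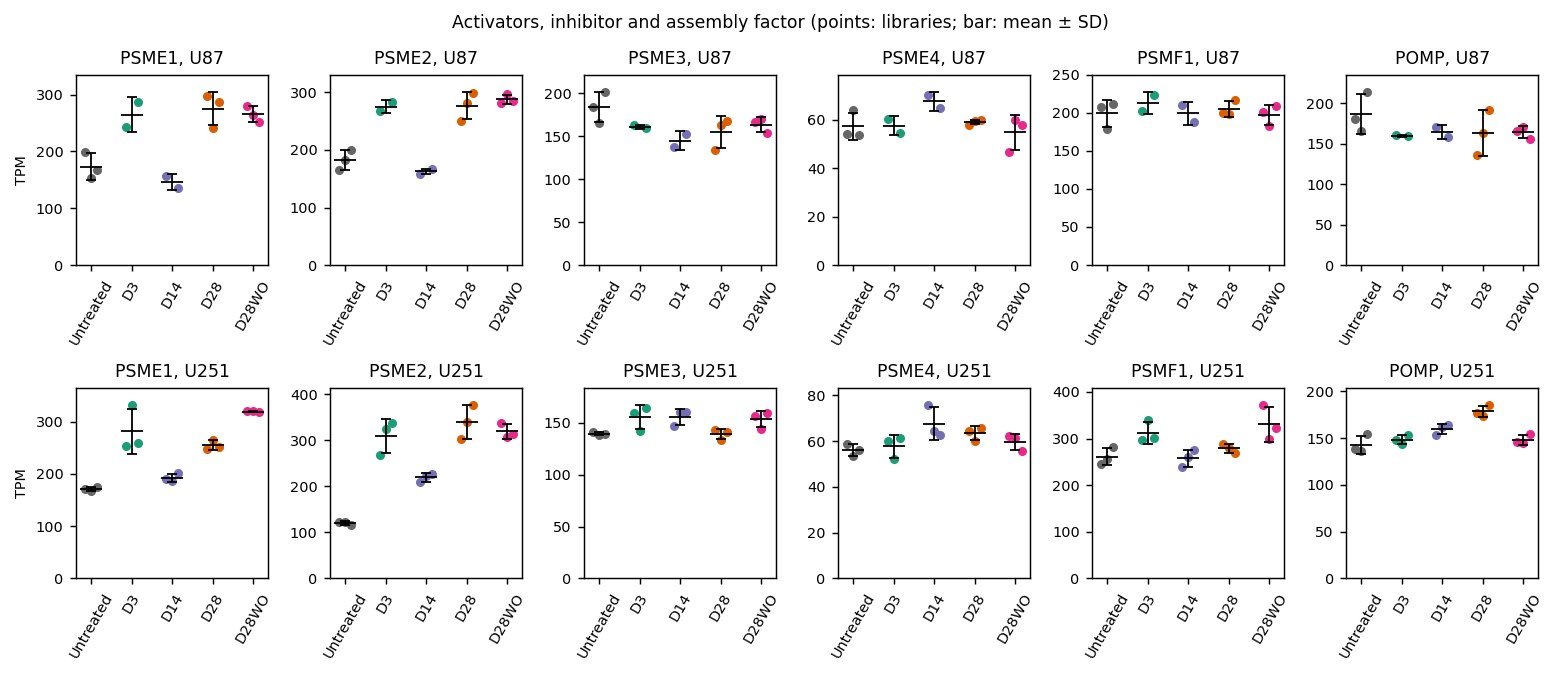
TPM of the activators PSME1 to PSME4, the inhibitor PSMF1 and the assembly factor POMP by group in U87 (top) and U251 (bottom). Points are libraries and bars the mean ± SD. PSME1 and PSME2 are raised at D3, D28 and D28WO in both lines, and PSME3 and PSME4 show no such rise.

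Over all 44 tested members, the calls at an adjusted p under 0.05 are read beside the share of all genes called in the same direction. In U87 at D3, 5 members were higher and 13 lower, beside 12.4% of all genes higher and 4.28% lower. At D14, 0 members were higher and 1 lower, beside 4.14% and 1.02%. The lower member was PSMD4, a ubiquitin receptor of the regulatory particle, at -0.35 (SE 0.08, adjusted p = 0.0361), a call lost without Untreated replicate 3 or either D14 library (adjusted p = 0.0730 to 0.207). At D28, 5 members were higher and 20 lower, beside 17.2% and 6.55%. At D28WO, 7 members were higher and 26 lower, beside 28.6% and 13.4%. The higher members at D3 and D28 were PSMB8, PSMB9, PSMB10, PSME1 and PSME2, joined at D28WO by the alpha subunits PSMA4 and PSMA6. Past an additional log2 fold change of 1 were PSMB9 and PSMB10 at D3, D28 and D28WO, where 5.85%, 6.77% and 12.8% of all genes were, and no member at D14, where 1.89% were.

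In U251 at D3, 9 members were higher and 7 lower, beside 24.9% of all genes higher and 16% lower. At D14, 10 members were higher and 0 lower, beside 13.8% and 7.31%. At D28, 13 members were higher and 3 lower, beside 25.9% and 14.7%. At D28WO, 8 members were higher and 5 lower, beside 14.3% and 13.4%. PSMB9, PSMB10 and PSME2 passed the log2 fold change of 1 at D3, D28 and D28WO, beside 9.72%, 11.9% and 4.07% of all genes, and PSMB9 alone at D14, beside 4.72%. The 4 comparisons of a line share its Untreated libraries. No member passed the fold limit downward, which 0.384%, 0.209%, 0.611% and 2.12% of all genes did in U87 and 4.55%, 1.04%, 3.35% and 3.38% in U251, from D3 to D28WO.

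**Figure D3:**
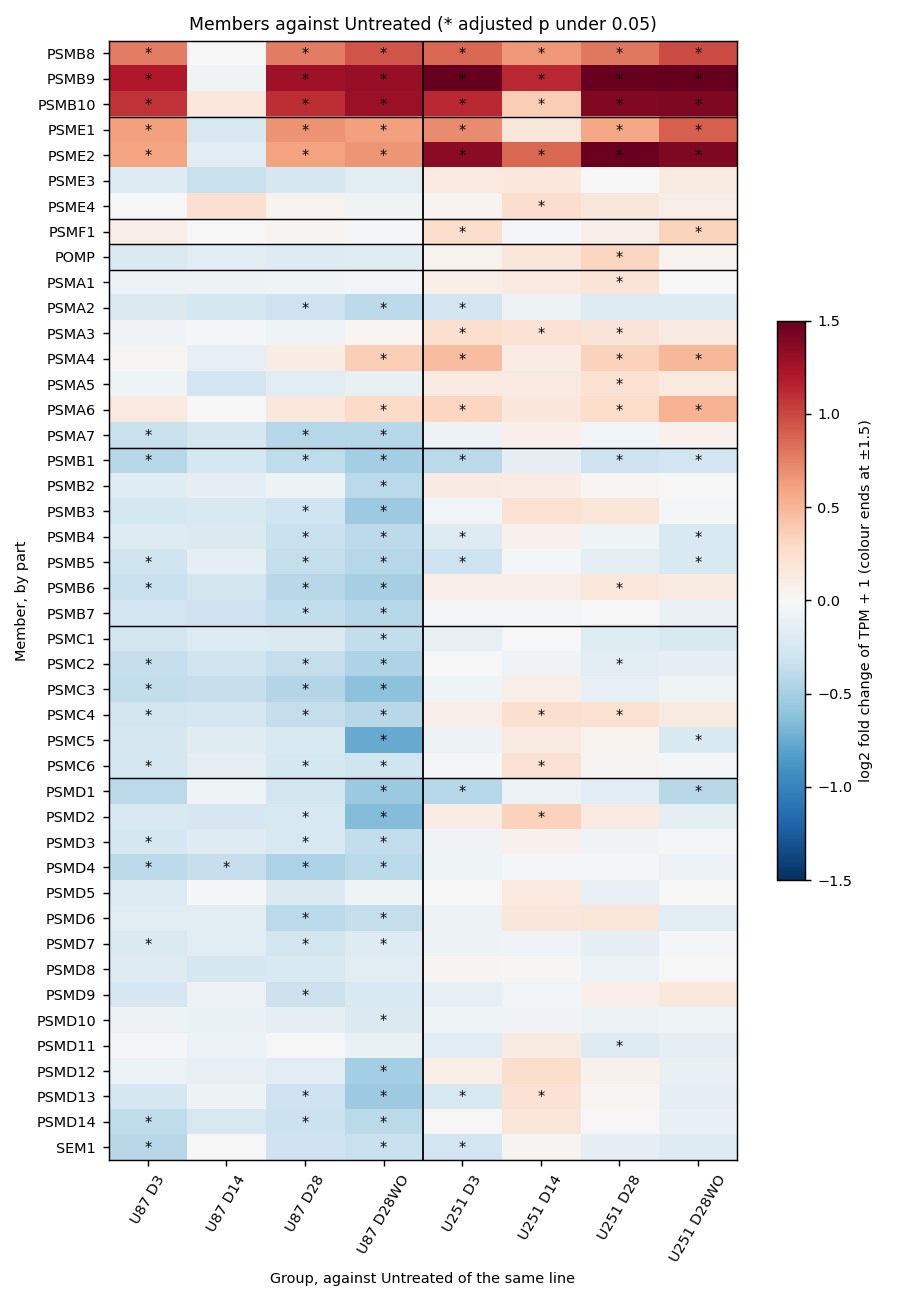
Log2 fold change of TPM + 1 against Untreated of the same line, for each of the 44 tested members (rows, by part) in 4 groups of U87 (left) and U251 (right). Stars mark an adjusted p under 0.05. The red rows are PSMB8, PSMB9, PSMB10, PSME1 and PSME2, and the core beta, ATPase and non-ATPase rows are mostly blue in U87.

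Outside the 5 inducible members, most subunits of U87 had lower values after IFN-γ. Of these 39 members, the number with a negative log2 fold change was 35 in D3, 36 in D14, 35 in D28 and 36 in D28WO. The median was -0.23, -0.17, -0.27 and -0.37, while that of all genes tested was 0.20, 0.15, 0.19 and 0.25, and that of the 10291 genes averaging 20 TPM or more was 0.06, 0.06, 0.04 and 0.06. The members called lower were 13, 1, 20 and 26 of 39, and among the genes of at least 20 TPM 8.64%, 1.84%, 12.8% and 25.1% were lower.

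The size of this shift depended on the scaling and on single libraries. Quantile normalization gave medians of the 39 of -0.10, -0.07, -0.14 and -0.20 in the same order, and median-ratio size factors gave -0.42, -0.35, -0.46 and -0.60, negative in each case. The same scalings moved the median of all genes tested at D28WO from 0.25 to -0.02 and 0.07. The higher and lower calls over all 44 members at D3 became 6 and 3 with quantile normalization, or 3 and 17 when median-ratio size factors were used, and at D28 they became 7 and 7 with quantile normalization. Of genes of at least 20 TPM, 6.88% and 17.1% were lower at D3 under these 2 scalings, and 10.6% at D28 with quantile normalization. Without Untreated replicate 3 the median at D28WO was -0.31, and 3 members were lower at D3, 12 at D28 and 24 at D28WO. Of genes of at least 20 TPM, 5.04%, 7.75% and 23.2% were then lower. At D3 the lower calls went to 0 without D3 replicate 2 and 7 without D3 replicate 3, beside 1.94% and 4.37% of those genes. At D28 the lower calls went to 13 without D28 replicate 1. At D28WO the number lower stayed between 20 and 32 over 12 alternatives. The 20 came with quantile normalization and the 32 with median-ratio size factors, beside 28.1% and 38.5% of genes of at least 20 TPM. The Untreated libraries of U87 listed 24223 to 25459 genes above 0 and its treated libraries 26096 to 28649, and the part of this difference in the result was not tested. Markers of the tissue moved as well. Of the 6 glioma and neural markers tested in U87, VIM, NES and CD44 were lower and GFAP and OLIG2 higher at D28WO, GFAP and S100B were higher at D28, and VIM was lower at D3. Of the 2 epithelial markers tested, EPCAM was lower at D28WO.

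**Figure D4:**
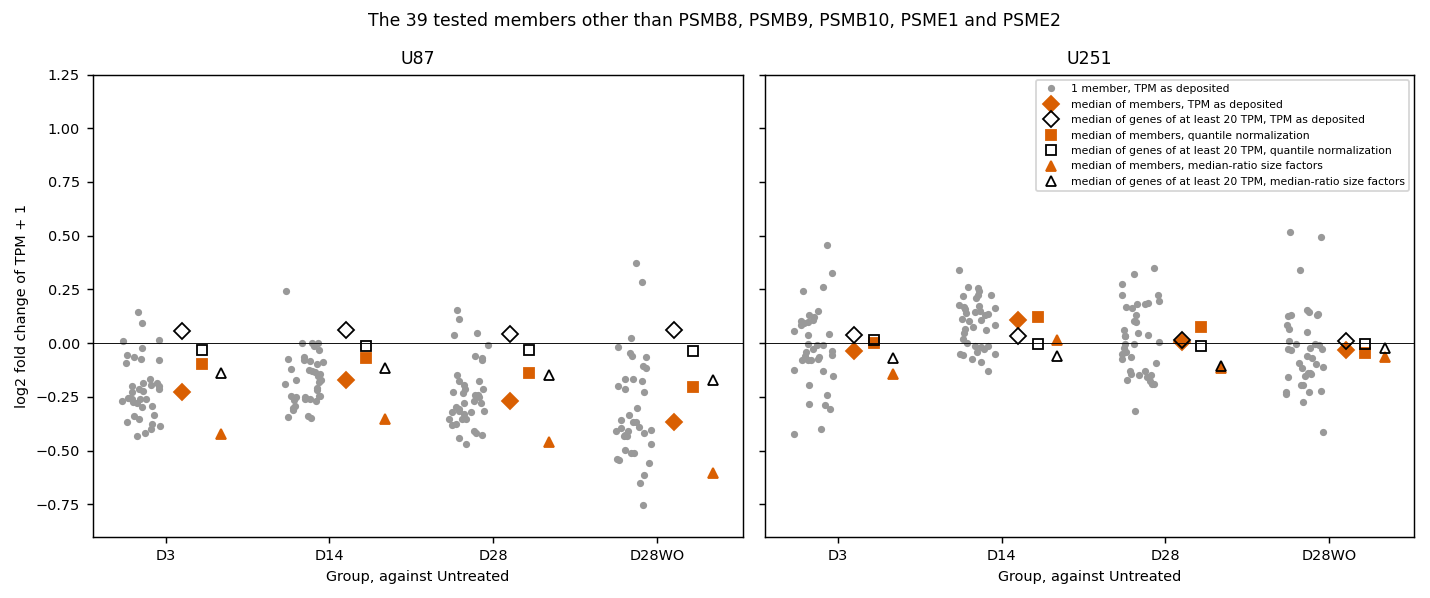
Log2 fold change against Untreated of the 39 tested members other than PSMB8, PSMB9, PSMB10, PSME1 and PSME2 (grey points), with their median (filled) and that of all genes averaging 20 TPM or more (open) under 3 scalings. In U87 the filled symbols lie below the open ones in each group and scaling, and in U251 they lie close together or on both sides.

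By role, the beta subunits and ATPases of U87 were lower most uniformly. At D28WO all 7 tested constitutive beta subunits and all 6 ATPases were lower by the test, 11 of 15 non-ATPase subunits were lower and none higher, and of 7 alpha subunits 2 were lower and 2 higher. The largest fall was that of PSMC5, an ATPase of the base. Its libraries were at 199.999, 198 and 247 TPM in Untreated, 179 and 179.6 at D3, 193 and 184 at D14, 175, 185 and 188 at D28 and 123, 128 and 129 at D28WO. The 3 D28WO libraries lay below all others, at a log2 fold change of -0.75 (SE 0.08, adjusted p = 2.39e-05) against Untreated. PSMD2, a large scaffold of the base, went from 398, 401 and 447 TPM in Untreated to 334 and 376 at D3, 333 and 365 at D14, 335, 373 and 345 at D28 and 265, 249.6 and 279 at D28WO, again lowest in D28WO (log2 fold change -0.65, SE 0.07, adjusted p = 3.92e-05). Among the structural beta subunits PSMB3 fell most, from 262, 236 and 296 TPM in Untreated to 166, 191 and 186 at D28WO (log2 fold change -0.54, SE 0.10, adjusted p = 0.000887), with 204 and 235 at D3, 231 and 214 at D14 and 219, 196 and 230.0 at D28. Without Untreated replicate 3 the D28WO values of PSMC5, PSMD2 and PSMB3 were -0.65, -0.60 and -0.46 (adjusted p = 2.26e-05, 0.000228 and 0.00409), and the D28WO calls of PSMD6 and SEM1 were lost (adjusted p = 0.108 and 0.0691).

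The alpha subunits of U87 moved apart from each other. PSMA7 was at 292, 274 and 334 TPM in Untreated, 228 and 246 at D3, 253 and 249.998 at D14, 199, 229 and 241 at D28 and 221, 231 and 213 at D28WO, and it fell at D28 (log2 fold change -0.43, SE 0.09, adjusted p = 0.00489). Without Untreated replicate 3 this value was -0.35 (adjusted p = 0.0194). PSMA4 was at 300.4, 252 and 303 TPM in Untreated, 300.3 and 274 at D3, 261 and 260.1 at D14, 308, 283 and 334 at D28 and 385, 373 and 348 at D28WO, and it rose at D28WO, by 0.37 (SE 0.08, adjusted p = 0.00386). PSMA4 is 1 of the 2 subunits outside the inducible 5 whose start window holds the paired GAAA letters, and the other, PSMB4, was lower at D28WO (-0.40, or -0.31 without Untreated replicate 3). PSMA6 rose as well at D28WO, by 0.28 (SE 0.09, adjusted p = 0.0275), a call lost without Untreated replicate 1 or 2 or D28WO replicate 1 or 2 (adjusted p = 0.0661 to 0.106). That call was also lost without the filter and with only the 2 compared groups in the fit. When median-ratio size factors were used, neither PSMA4 nor PSMA6 was called higher at D28WO. With quantile normalization both were, together with PSMA1 and PSMA3.

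In U251 the direction of the 39 other members differed between groups. The number with a negative log2 fold change was 24 in D3, 11 in D14, 19 in D28 and 26 in D28WO. Their median log2 fold change was -0.03 in D3, 0.11 in D14, 0.00 in D28 and -0.03 in D28WO, beside 0.04, 0.03, 0.01 and 0.01 for genes of at least 20 TPM. With quantile normalization the medians were 0.00, 0.12, 0.08 and -0.04 and 19, 7, 13 and 24 members were negative, and with median-ratio size factors -0.14, 0.01, -0.12 and -0.06 and 31, 18, 27 and 27, so the sign at D28 depended on the scaling. Higher and lower calls numbered 4 and 7, 6 and 0, 8 and 3, and 3 and 5. Single libraries moved these counts. Without Untreated replicate 3 the lower calls were 4 at D3, 1 at D28 and 2 at D28WO, and the higher calls at D28 were 5. Without Untreated replicate 1 the higher calls were 2 at D14, and at D28 there were 5 higher and 6 lower. Without Untreated replicate 2 the higher calls were 3 at D14 and 5 at D28. At D28 the lower call was 1 without D28 replicate 2 and the higher calls 4 without D28 replicate 3, and at D28WO the lower calls were 2 without D28WO replicate 1 and 3 without D28WO replicate 3. Over all 44 members median-ratio size factors turned the split at D28 from 13 higher and 3 lower to 7 and 11, quantile normalization turned it to 18 and 1, and at D3 median-ratio size factors gave 7 and 11 in place of 9 and 7. At D14 the higher calls were 18 with quantile normalization, against 10, and 4 when median-ratio size factors were used. The percentage of genes of at least 20 TPM called was 26.4% higher and 25.2% lower at D28, so the share of these 39 members called was not above that of other abundant genes in either direction.

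In U251 the alpha subunits held 5 of the 8 rises of these 39 members at D28, and of 7 tested alpha subunits 0 were lower there. With median-ratio size factors 1 was higher, PSMA4, and 1 lower. The number higher was 3 without Untreated replicate 1 or 2 and 2, PSMA4 and PSMA6, without Untreated replicate 3 or D28 replicate 3. PSMA6 was at 181, 195 and 189 TPM in Untreated, 234, 238 and 236 at D3, 198, 234 and 207 at D14, 226, 225 and 235 at D28 and 258, 288 and 265 at D28WO, a rise of 0.52 (SE 0.06, adjusted p = 2.32e-05) at D28WO. PSMA4 was at 261, 263 and 284 TPM in Untreated, 362, 386 and 363 at D3, 281, 292 and 300.3 at D14, 359, 332 and 339 at D28 and 368, 391 and 381 at D28WO, and it rose at D3, D28 and D28WO by 0.46, 0.35 and 0.50. With TPM as deposited, PSMA4 and PSMA6 were thus the alpha subunits called higher at D28WO in both lines. When median-ratio size factors were used, neither was called higher in U87, and both were in U251. PSMA2 went the other way at D3, from 106, 121 and 129 to 84.6, 105 and 103 TPM (log2 fold change -0.28, SE 0.09, adjusted p = 0.0244, and 0.0691 to 0.116 without Untreated replicate 2 or 3 or D3 replicate 1), with 105, 115 and 117 at D14, 108, 96.8 and 106 at D28 and 100.1, 109.9 and 99.7 at D28WO.

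Of the other U251 subunits, PSMB1 fell at D3, D28 and D28WO. Its libraries were at 182, 191 and 206 TPM in Untreated, 136, 144 and 157 at D3, 172, 178 and 178 at D14, 156, 153 and 155 at D28 and 151, 161 and 165 at D28WO, with a log2 fold change of -0.40 (SE 0.06, adjusted p = 0.000110) at D3. In U87 PSMB1 was at 232, 228 and 277 TPM in Untreated and 168, 179 and 167 at D28WO (-0.51, or -0.42 without Untreated replicate 3). PSMD1, the other large scaffold of the base, was at 195, 178 and 204 TPM in Untreated U251 cells, 128, 150.0 and 152 at D3, 184, 191 and 168 at D14, 167, 184 and 162 at D28 and 150.1, 144 and 138 at D28WO, and fell at D3 and D28WO (log2 fold change -0.42 and -0.41).

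PSMD2 rose in U251 at D14, from 268, 260.3 and 283 to 314, 359 and 358 TPM (log2 fold change 0.34, SE 0.08, adjusted p = 0.00547), and was at 294, 283 and 297 at D3, 283, 277 and 331 at D28 and 249.6, 261 and 227 at D28WO. The ATPase PSMC4 was at 115, 112 and 110.3 TPM in Untreated, 114, 119 and 129 at D3, 132, 133 and 134 at D14, 126, 132 and 136 at D28 and 127, 119 and 122 at D28WO, and rose at D14 and D28 by 0.24 and 0.23. PSMC5 of U251 was at 173, 171 and 195 TPM in Untreated, 161, 179.8 and 169.7 at D3, 184, 202 and 207 at D14, 182, 178 and 197 at D28 and 146, 161 and 152 at D28WO, and fell at D28WO (log2 fold change -0.23, SE 0.07, adjusted p = 0.0206, and 0.0560 to 0.0939 without Untreated replicate 3 or D28WO replicate 1 or 3). The rises of PSMD2 and PSMC4 at D14 were lost with median-ratio size factors, with which PSMB8, PSMB9, PSMB10 and PSME2 were the 4 members still called.

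Between treated groups of U87, the calls on both sides of D14 were the 5 inducible members. From D3 to D14, 0 members were higher and 5 lower, beside 1.47% and 3.32% of all genes, and the 5 were PSMB8 (-0.76), PSMB9 (-1.25), PSMB10 (-0.94), PSME1 (-0.85) and PSME2 (-0.75). From D14 to D28 the same 5 genes were higher and none lower, beside 2.94% and 1.12% of all genes, by 0.75, 1.32, 0.95, 0.91 and 0.76 in that order. Both comparisons share the 2 D14 libraries, and with only the 2 compared groups in the fit 0 and 2 of these calls remained. Without D14 replicate 3 the call of PSME1 from D3 to D14 was lost (adjusted p = 0.0530). At D28WO, after withdrawal at day 14, these 5 were high, though they were not raised in the D14 libraries. D28WO was not tested against D14, its labelled start, in either line. From D28 to D28WO 0 members were higher and 4 lower, beside 9.9% and 8.44% of all genes, or 1 and 5 with quantile normalization, and the differences of the 5 ran from -0.05 for PSME1 to 0.19 for PSMB10. The 4 lower members were PSMC5 (-0.53), PSMD2 (-0.41), PSMD12 (-0.34) and PSMB2 (-0.33). Without D28 replicate 3 there were 3 higher members as well, PSMA4, PSMB8 and PSMB10.

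In U251, from D3 to D14 14 members were higher and 7 lower, beside 12.8% and 12.6% of all genes. The higher ones were 8 without D14 replicate 3 and 9 without D14 replicate 2 or D3 replicate 1. The lower ones were the 5 inducible members, by -0.76 for PSMB10 to -0.21 for PSMB8, with PSMA4 (-0.35) and PSMF1 (-0.27). The call of PSMB8 was lost with only the 2 compared groups in the fit (adjusted p = 0.0598) and without D14 replicate 1 (adjusted p = 0.0557). The higher ones held 7 non-ATPase and 4 beta subunits, with the largest difference for PSMD13 (log2 fold change 0.46, SE 0.07, adjusted p = 0.000292). From D14 to D28 5 were higher and 3 lower, beside 11.3% and 9.48%. The lower ones were 5 without D14 replicate 1 and 1 without D14 replicate 3 or D28 replicate 1 or 2. The higher ones were PSMB9, PSMB10, PSME1, PSME2 and PSMA4, led by PSMB10 at 1.01 (SE 0.07, adjusted p = 1.99e-07). From D28 to D28WO 6 were higher and 6 lower, beside 10.3% and 18.8%, and 3 were higher without D28 replicate 2 or D28WO replicate 3. After withdrawal PSMB9 (log2 fold change 0.40, SE 0.05, adjusted p = 7.87e-05), PSME1 (log2 fold change 0.32, SE 0.08, adjusted p = 0.00734) and PSMB8 (0.18) were above D28, and PSMB10 and PSME2 differed from it by 0.02 and -0.08 without passing the test. The split of this comparison was 2 and 11 with quantile normalization, or 9 and 1 when median-ratio size factors were used, and the call of PSMB8 was lost with quantile normalization and without D28 replicate 1 or 2 or D28WO replicate 2 or 3.

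Summed over parts, the inducible beta subunits of U87 held 250.03 ± 11.5 TPM in Untreated (SD, n = 3) and 576 ± 29.8 TPM at D28WO (n = 3), 230.2% of the Untreated mean. PSME1 and PSME2 together held 156%, the constitutive beta subunits 72.5%, the ATPases 71.2% and the non-ATPase subunits 77.1% of their Untreated mean, and the alpha subunits 99.7%. In U251 the inducible beta subunits went from 278 ± 8.03 to 775 ± 25.2 TPM, 279% of Untreated, PSME1 and PSME2 to 219%, the alpha subunits to 117%, and the beta, ATPase and non-ATPase subunits to 92.8%, 92.6% and 92.6%. All members together held 8964 ± 662 TPM in Untreated U87 cells and 7859 ± 118 at D28WO, and 6988 ± 252 and 7794 ± 53.3 TPM in U251. These sums were not tested.

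**Figure D5:**
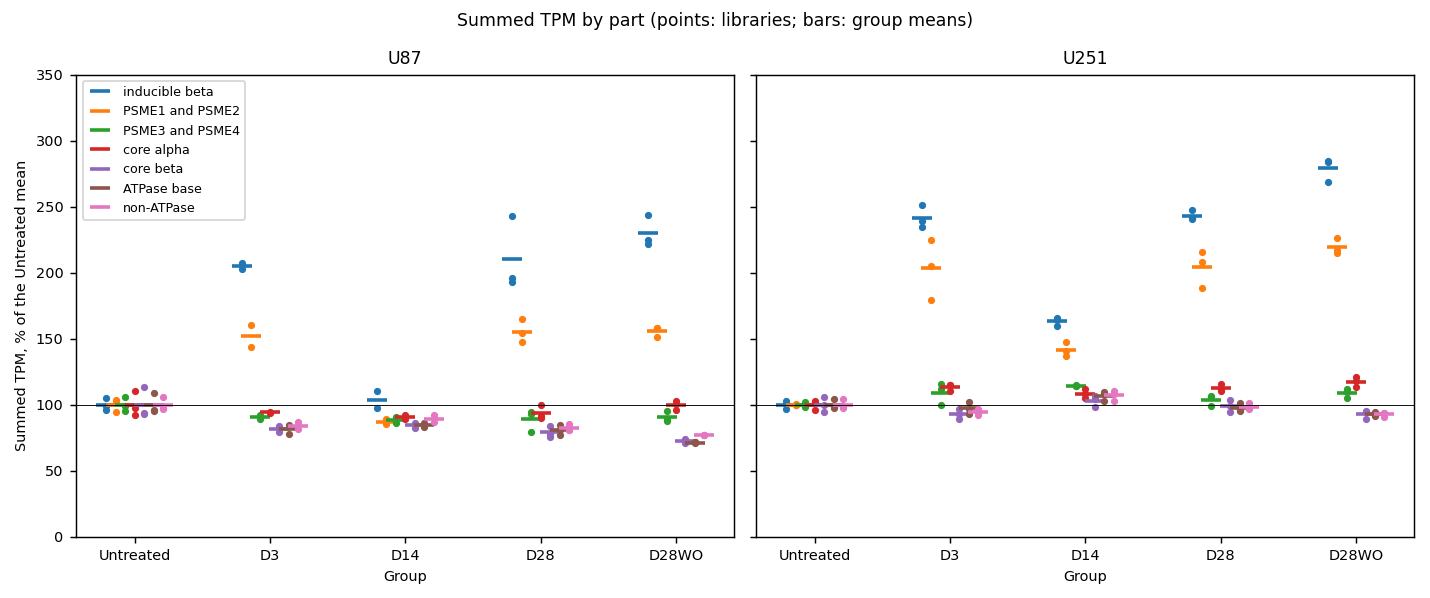
Summed TPM of each part as a percentage of its Untreated mean, by group, in U87 (left) and U251 (right). Points are libraries and bars group means. The inducible beta subunits reach 230.2% in U87 and 279% in U251 at D28WO, and the constitutive beta, ATPase and non-ATPase parts of U87 lie under their Untreated mean in all treated groups.

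Genes that work with the proteasome without being subunits, 27 in all, were all tested in both lines. In U87 4 were higher and 1 lower at D3, 0 and 2 at D14, 5 and 5 at D28 and 7 and 4 at D28WO. Of all genes, 12.4% and 4.28%, 4.14% and 1.02%, 17.2% and 6.55%, and 28.6% and 13.4% were higher and lower in the same order. In U251 the numbers were 12 and 3, 6 and 0, 11 and 5, and 9 and 1, beside 24.9% and 16%, 13.8% and 7.31%, 25.9% and 14.7%, and 14.3% and 13.4% of all genes. None changed by more than a log2 fold change of 1. By group, the 4 genes behind transcription of subunits, NFE2L1, NFE2L2, DDI2 and NGLY1, had 0 higher at D3 and D14, 1 at D28 and 3 at D28WO in U87, with medians of 0.15, -0.09, 0.17 and 0.53. In U251 2, 1, 2 and 2 were higher, with medians of 0.28, 0.16, 0.16 and 0.35, and none was lower in either line. Background for these genes is that NFE2L1, processed by DDI2 and NGLY1, drives subunit genes when proteasome activity is short. The 5 genes listed here as assembly chaperones, PSMG1 to PSMG4 and PAAF1, held no call at D28WO in U87 and 2 higher in U251.

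Reads shared with copies are a limit for some members. Both tables list 45 symbols of the form of a member's pseudogene, and the highest of them, PSMC2P1, had a mean of 1.88 TPM in U87 and 2.07 TPM in U251. In the annotation (GENCODE release 44) 27 of the 46 members overlap another gene, 17 of them a protein-coding one.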

How the data were processed

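RNA was sequenced from 2 glioblastoma lines, and 28 of the 30 libraries were used, since 2 value columns for U87 share 1 name and were not used. The authors aligned the trimmed paired-end reads to GRCh38 with STAR and counted them with featureCounts. The submitters' processing notes name FastQC, Trim Galore and edgeR as well. The study gives versions of these tools in its methods, and strand is not given in the sources used here. The values the authors deposited are TPM per gene symbol, in 1 table per line. The lines were fitted separately here and never tested against each other. TPM keeps no depth. The study states a minimum number of reads per library, but the reads behind a value cannot be recovered, so no counting interval is given.

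Values were taken as log2(TPM + 1) and fitted with limma 3.58.1 in R 4.3.3, all 5 groups of a line together, over genes averaging 0.5 TPM or more, 22918 in U87 and 23667 in U251. A fold change is on the log2(TPM + 1) scale, which understates the change of low genes. A gene was called at a Benjamini-Hochberg adjusted p under 0.05 over all these genes, and an absolute log2 fold change over 1 was used as a second limit. Ratios and shares were compared by exact permutation tests, 2-sided. The script was tested on simulated data. The study describes its replicates as cultures that were set up and treated apart.

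The members and gene lists were chosen with earlier results of these data known. Library values are given for the inducible members with their counterparts, for the activators, PSMF1 and POMP, and for the member with the largest rise and fall of each other part among those called in a line. Other members named are those of small counts and were chosen after their values were seen. A few genes of the lists, the group that held some of them and 1 motif are not reported here. Gene positions come from GENCODE release 44 and start windows from RefSeq (GRCh38.p14). Each result was recomputed with 0.1 as the pseudocount, without the filter, with quantile normalization or median-ratio size factors, with a fit of the 2 groups alone, with the replicate number as a block, and without each library in turn.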

Additional observations from a re-analysis of the deposited data

Results flagged for a closer look

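In 15 of the 308 pairs of a tested member and a comparison (44 members, 7 comparisons), which is 4.87%, every U87 library lay on one side of all libraries it was compared with and every U251 library on the other side. The same held for 6.53% of the pairs over all genes tested in both lines and for 8.1% over genes averaging 20 TPM or more in both. At D14 against Untreated it was 6 of 44 members, 13.6%, against 6.41% of all genes and 8.66% of abundant ones, at D28 and D28WO 3 of 44 each, 6.82%, against 6.46% and 6.22% of all genes, and at D3 2 of 44, 4.55%, against 6.77%. From D3 to D14 it was 1 of 44, 2.27%, against 6.58%, and from D14 to D28 and from D28 to D28WO no member, against 4.44% and 8.85% of all genes. The difference between the lines was not tested, since each line was fitted on its own. Of the 15 pairs, 2 were called in both lines and 6 in neither. The values of members are log2 fold changes, U87 first. Those called by limma (adjusted p under 0.05) are named as such.

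At D28 the caspase-like subunit PSMB6 was at -0.42 and 0.16 and the ATPase PSMC4 at -0.35 and 0.23, each called in both lines (U87 values of -0.35 and -0.30 without Untreated replicate 3). The U251 call of PSMB6 was lost without Untreated replicate 1 or 2 or D28 replicate 2 or 3 (adjusted p = 0.0555 to 0.148). When median-ratio size factors were used, 2 of the 39 members outside the inducible ones were higher in U251 at D28. Of these 2, 1 was PSMA4, so PSMB6 and PSMC4 did not both keep their call. PSMD6 of the regulatory particle was at -0.41, called, and 0.18, not called. Without Untreated replicate 3 the U87 value of PSMD6 was -0.28, not called (adjusted p = 0.0954). At D28WO PSMB6 was at -0.50 and 0.13, PSMC4 at -0.42 and 0.13, both called in U87 alone (-0.43 and -0.36 without Untreated replicate 3), and PSMD9 at -0.23 and 0.15, called in neither.

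At D14 PSMC4 was at -0.25 and 0.24, PSMC6 at -0.14 and 0.22 and PSMD2 at -0.25 and 0.34, each called in U251 alone, that of PSMC6 not without Untreated replicate 1 or 2 or any 1 D14 library (adjusted p = 0.0572 to 0.104). PSMB3 at -0.25 and 0.22, PSMD3 at -0.19 and 0.07 and PSME3 at -0.34 and 0.16 were called in neither line. The U87 libraries labelled D14 are the 2 in which IRF1 was not above its Untreated values (134 and 109.8 TPM against 130.1 to 136 TPM). At D3 PSMD2 was at -0.23 and 0.11 and PSME3 at -0.19 and 0.15, called in neither, and from D3 to D14 PSMD11, a subunit of the lid, was at -0.066 and 0.29, called in U251.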

How the results depend on the processing

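The rises of PSMB8, PSMB9, PSMB10, PSME1 and PSME2 against Untreated kept their direction and call under every alternative run, apart from PSME1 and PSME2 of U87 at D3, and PSME1 of U251 at D14, not called with TPM as deposited, was called with quantile normalization or 2 groups. In U87 the counts of members called were less stable. At D3, 18 were called, 9 with quantile normalization, 3 with only the 2 compared groups in the fit and 5 to 17 with 1 library left out, where 5 came without D3 replicate 2, 8 without Untreated replicate 3 and 11 without D3 replicate 3. The 1 call at D14 became 0 with no filter, quantile normalization, median-ratio size factors, 2 groups or the replicate block, and 0 to 1 with 1 library left out, where 0 came without D14 replicate 2 or 3 or Untreated replicate 3. At D28, 25 became 14 with quantile normalization and 11 with 2 groups. The 5 calls from D3 to D14 became 0 and the 5 from D14 to D28 became 2 with 2 groups, and the 4 from D28 to D28WO ran from 3 to 7, with 7 without D28 replicate 3. With quantile normalization the differences in inducible share of U87 were 17.3, 1.36, 19.3 and 22.4 points at D3, D14, D28 and D28WO.

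In U251 the 10 calls at D14 became 18 with quantile normalization, 4 when median-ratio size factors were used, and 6 to 10 with 1 library left out, with 6 without Untreated replicate 1. The 21 from D3 to D14 became 12 with 2 groups, and the 12 from D28 to D28WO ran from 7 to 12, with 7 without D28 replicate 2 or D28WO replicate 3. With quantile normalization PSMA1 of U87 at D28WO turned to 0.21 and PSMB7 of U251 at D28 to 0.16, neither called with TPM as deposited. The cause of these changes was not tested, apart from the fewer libraries of a smaller fit.

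Same-numbered libraries did not deviate together, with a highest correlation of their deviations of 0.0480 in U251 and 0.0472 in U87, so the numbers give no pairing. With the replicate block 17 members were called at D3, 26 at D28 and 33 at D28WO in U87, and 16, 13, 16 and 13 at D3, D14, D28 and D28WO in U251. The reads behind each value could not be recovered from TPM, so the limit that depth sets on low values was not computed.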
